A study of Mus musculus with 6 samples.

Results

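The ubiquitin-specific proteases (USPs) were examined here as a gene family in mouse embryonic stem cells (mESCs) that had lost Dicer. Members were all genes with a symbol made of Usp, a number and an optional letter suffix, taken from probe sets that name a single gene, whatever their values. This gave 50 of the 18193 genes on the array, measured by 126 probe sets of which 89 were expressed. The study asked which messenger RNAs are released from repression when an mESC loses its microRNAs (miRNAs). Feeder-free cells carrying a floxed Dicer gene on both alleles received either a GFP plasmid only, giving the Dcr WT group, or GFP together with Cre recombinase, giving the Dcr KO group. Total RNA was taken on day 5 after transfection from 3 biological replicates of each group. All 6 cultures were grown on gelatin with serum and the cytokine LIF. The Dcr KO samples were polyclonal populations, in which cells that kept Dicer may remain. None of these cultures received Cre without a floxed Dicer gene, so effects of Cre and of Dicer loss cannot be told apart.

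Ubiquitin is a small protein that is attached to lysines of other proteins, where chains of it mark a protein for the proteasome and single copies change its location or activity. USPs are cysteine proteases that take ubiquitin off again, and they form the largest class of deubiquitinases. In stem cells, members of the family act on histones, on p53 and its ligase Mdm2, and on components of the Wnt and TGF-beta pathways. Dicer cuts miRNA precursors into mature miRNAs, which pair with messenger RNAs mainly through a seed of bases 2 to 8 and lower their level.

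The most abundant miRNA cluster of mESCs, the mir-290 to mir-295 cluster on the + strand of chromosome 7, is shown here because the study predicted targets from AAGUGC, the first 6 bases of these seeds. The mature sequences are those of RefSeq (GRCm38.p6), 5′ to 3′, with the seed in capitals.
miR-290a-3p, chr7:3218674-3218697: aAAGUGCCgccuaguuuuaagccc
miR-291a-3p, chr7:3218968-3218989: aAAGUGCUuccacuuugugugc
miR-291b-3p, chr7:3219529-3219550: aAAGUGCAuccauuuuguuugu
miR-294-3p, chr7:3220691-3220712: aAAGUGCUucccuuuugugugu
miR-295-3p, chr7:3220815-3220837: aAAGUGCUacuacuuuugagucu
The cluster also holds miR-292a-3p. The seed AAGUGCU was shared by miR-291a-3p, miR-294-3p and miR-295-3p, whereas miR-290a-3p and miR-291b-3p differed from it only in the last seed base. The arrays measured messenger RNA and not these miRNAs.

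All values were log2 signals on 3' expression arrays, and a difference is the Dcr KO mean minus the Dcr WT mean. A gene was tested when its mean over the 6 arrays was at least 4, which is 16 on the linear scale, and it was called changed at a limma adjusted p below 0.05 over the 8782 genes tested. Dicer1 itself read 7.78, 7.89 and 7.16 in Dcr WT and 6.33, 6.59 and 5.92 in Dcr KO, or 39.7% of the Dcr WT level (limma adjusted p = 0.0134). This averaged probe sets that differed, at 27.9% (limma adjusted p = 0.0138 over probe sets) and 56.5% (limma adjusted p = 0.0908) of the Dcr WT level. The 6 arrays correlated with each other at 0.984 to 0.997. All 10 ES cell markers were at or above the minimum, with a list mean of 10.29 to 10.49 in Dcr WT and 10.48 to 10.51 in Dcr KO. Of 8 fibroblast markers 2 were at or above the minimum, of 6 primitive endoderm markers 0, of 6 trophectoderm markers 4 and of 6 neural markers 2. The neural list mean was 3.53 to 3.62 in Dcr WT and 3.95 to 4.01 in Dcr KO, and its called member was Tubb3, a neuronal tubulin. Whether neural transcripts contributed to the differences given below was not tested. Dcr WT replicate 2 stood apart in a set of probe sets: of the 1286 expressed probe sets whose Dcr WT arrays spanned over 1 log2 unit, it was the lowest in 913. The same held for 7 of the 11 USP probe sets with such a span.

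Of the 50 USP genes, 38 were expressed highly enough to be tested. Usp46, Usp25, Usp33 and Usp34 rose in Dcr KO, by 1.37- to 1.69-fold. Usp39, a splicing factor with a USP fold, fell. The other 33 tested members did not pass the test. In total 13.2% of tested members changed, against 13.3% of all genes tested. The share in the family was thus close to that over the array. By direction, 10.5% of tested members rose against 6.91% of all genes, and 2.63% fell against 6.42%. At an unadjusted limma p below 0.05, 4 members were higher (14.7% of all genes were) and 2 lower (17.3% of all genes), which were the called members and Usp6nl. In a bulk sample, a changed share of cells expressing a gene and a changed amount of its RNA per cell cannot be told apart.

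The differences were small. Among the tested members 25 differences were above 0, 12 were below it and that of Usp3, a histone H2A deubiquitinase, was 0. Their median was 0.06, compared with -0.02 over all genes tested, and their median absolute difference was 0.14, compared with 0.21. The 38 members with a Dcr WT mean of at least 16 on the linear scale included 7 that were at least 1.2-fold up (18.4%, against 18.1% of all such genes) and 3 that were at least 1.2-fold down (7.89%, against 22.0%). All 3 Dcr KO arrays lay above all 3 Dcr WT arrays for 6 tested members (15.8%, against 17.7% of all genes), namely Usp25, Usp32, Usp33, Usp34, Usp46 and Usp48. They lay below for Usp6nl and Usp39 (5.26%, against 21.2%).

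**Figure D1:**
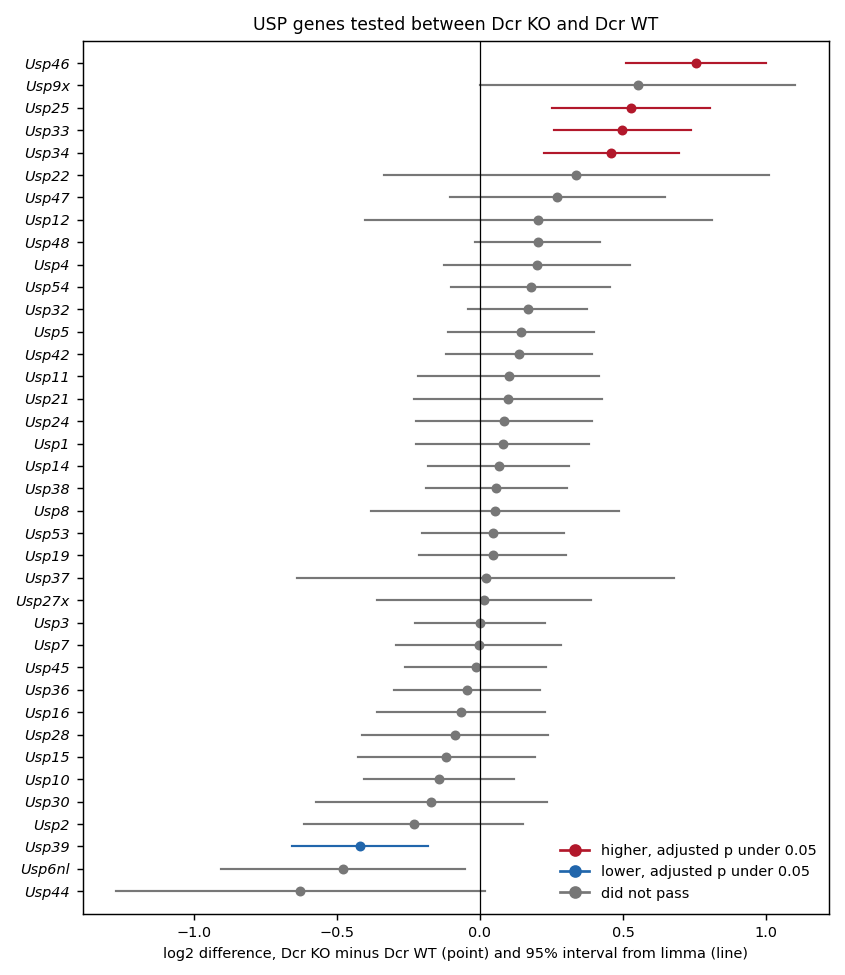
Dcr KO minus Dcr WT log2 difference for each of the 38 tested USP genes on the horizontal axis, with bars for the 95% confidence interval from limma. Usp46, Usp25, Usp33 and Usp34 were called higher and Usp39 lower, and most of the other differences lay close to 0.

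Usp46 showed the largest rise. It encodes a deubiquitinase that needs the WD-repeat protein Wdr48 for full activity and acts on Akt phosphatases and, in neurons, on glutamate receptors. Its levels were 7.47, 7.73 and 7.57 in Dcr WT and 8.32, 8.40 and 8.31 in Dcr KO. Every Dcr KO array was higher than every Dcr WT array, and the Dcr KO arrays were closely spaced. The difference was 0.76 (SE 0.11, 95% interval 0.51 to 1.00), or 1.69-fold, with means of 7.59 ± 0.13 and 8.34 ± 0.05 (SD, n = 3 each; limma adjusted p = 0.00676). Each of its expressed probe sets rose in the fit over single probe sets, by 0.54 (limma adjusted p = 0.0446) and 0.97 (limma adjusted p = 0.0110). The call held without any 1 of the 6 arrays, with a highest limma adjusted p of 0.0373.

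Usp33 deubiquitinates membrane proteins and their regulators, among them the axon guidance receptor Robo1. Its only probe set read 9.31, 9.14 and 9.27 in Dcr WT and 9.85, 9.67 and 9.69 in Dcr KO, and the groups did not overlap. The difference was 0.50 (SE 0.10, 95% interval 0.26 to 0.74), or 1.41-fold (limma adjusted p = 0.0227). The call held in 2 of the 6 fits that leave out an array, those without Dcr WT replicate 1 and without Dcr KO replicate 3, and was lost without each of the other arrays, with a highest limma adjusted p of 0.0680.

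Usp25 regulates tankyrases in Wnt signalling and adaptor proteins in innate immune signalling. Its gene level was 4.14, 4.06 and 3.92 in Dcr WT and 4.74, 4.43 and 4.52 in Dcr KO, close to the minimum but with no overlap. The difference was 0.53 (SE 0.12, 95% interval 0.25 to 0.80), or 1.44-fold (limma adjusted p = 0.0299). The gene level averaged a probe set that was expressed with another that was not. The expressed probe set read 6.32, 6.29 and 6.20 in Dcr WT and 7.79, 7.19 and 7.18 in Dcr KO, a 2.17-fold difference (limma adjusted p = 0.0207 over probe sets). For the gene level, the call held in 1 of the 6 fits that leave out an array, that without Dcr WT replicate 1 (limma adjusted p = 0.0499), and the highest adjusted p without an array was 0.0897.

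Usp34 is a very large USP that removes ubiquitin from axin, a scaffold of the complex that degrades beta-catenin. Its levels were 8.59, 8.59 and 8.40 in Dcr WT and 8.93, 9.0 and 9.03 in Dcr KO, without overlap. The difference was 0.46 (SE 0.10, 95% interval 0.22 to 0.69), or 1.37-fold (limma adjusted p = 0.0275). This call rested on averaging probe sets that differed. The brightest read 10.84, 10.99 and 10.57 in Dcr WT and 10.72, 10.89 and 10.92 in Dcr KO, and with it alone the difference was 0.04 (limma adjusted p = 0.847). The dimmest read 5.69, 6.64 and 5.77 in Dcr WT and 7.23, 6.88 and 6.73 in Dcr KO, a difference of 0.91 that did not pass the test by itself (limma adjusted p = 0.0893). The remaining probe set read 9.24, 8.14 and 8.85 against 8.83, 9.23 and 9.43, with overlap (difference 0.42, limma adjusted p = 0.391 over probe sets). Dcr WT replicate 2 was the lowest control array there and the highest in the dimmest. These deviations offset each other in the gene mean, which narrowed its spread. The call held in 1 of the 6 fits that leave out an array, that without Dcr WT replicate 2 (limma adjusted p = 0.0469), and the highest adjusted p without an array was 0.0981.

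Usp39 was the only tested member that fell with gene means, but with the brightest probe set it did not pass (limma adjusted p = 0.0630) and Usp43, described among the members under the minimum, was called lower instead. Usp39 belongs to the spliceosome, where it helps join the U4/U6.U5 small nuclear ribonucleoprotein, and lacks residues of the catalytic centre. Its levels were 10.53, 10.66 and 10.66 in Dcr WT and 10.21, 10.29 and 10.08 in Dcr KO, and every Dcr KO array was lower. The difference was -0.42 (SE 0.10, 95% interval -0.66 to -0.18), or 74.7% of the Dcr WT level (limma adjusted p = 0.0364). Its probe sets differed by similar amounts, -0.44 and -0.40, and neither passed the test alone (limma adjusted p = 0.0556 and 0.0986). The call was lost without any 1 of the 6 arrays, with limma adjusted p from 0.0569 to 0.0958.

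**Figure D2:**
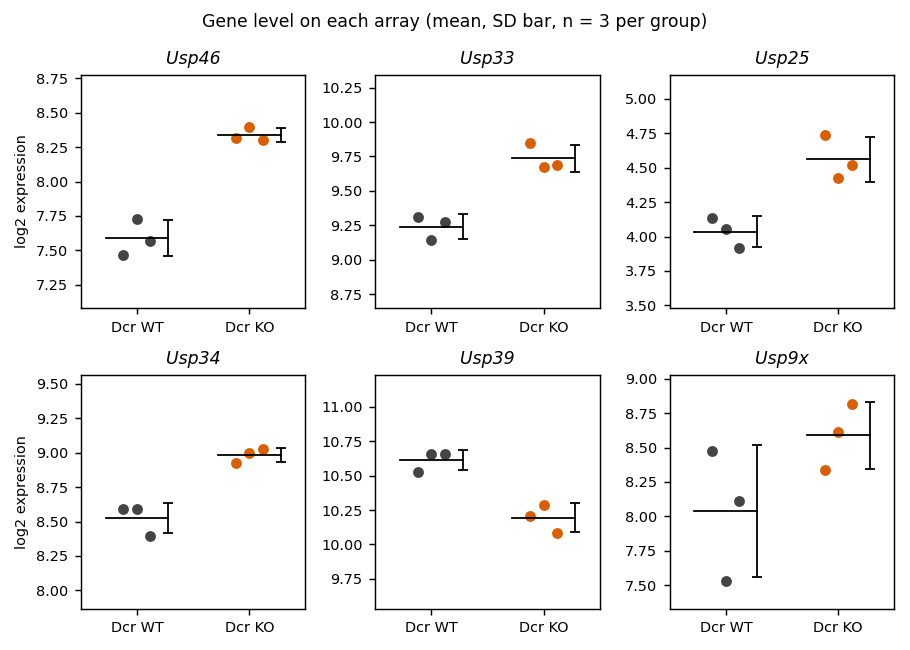
Log2 level of selected USP genes on each of the 3 Dcr WT and 3 Dcr KO arrays, with points for arrays, lines for group means and bars for the SD (n = 3 each). All panels span the same number of log2 units. The groups did not overlap for Usp46, Usp33, Usp25, Usp34 and Usp39, and did for Usp9x, where Dcr WT replicate 2 was at 7.53.

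Usp9x and Usp44 had large differences that did not pass the test. Usp9x, an X-linked USP that stabilises Mcl1 and acts in TGF-beta signalling, read 8.48, 7.53 and 8.11 in Dcr WT and 8.34, 8.61 and 8.82 in Dcr KO. Dcr WT replicate 2 was the lowest array and the groups overlapped. The difference was 0.55 (95% interval -0.00089 to 1.10, limma adjusted p = 0.157), and without Dcr WT replicate 2 it was 0.30 (limma adjusted p = 0.314). The gene had 7 expressed probe sets, all with a difference above 0, from 0.22 to 1.2. In 4 of them the groups did not overlap, for example 10.30, 10.11 and 9.95 in Dcr WT against 10.44, 10.53 and 10.44 in Dcr KO for the brightest. The others held the low values of Dcr WT replicate 2, such as 6.0, 3.34 and 5.67 against 4.74, 6.39 and 7.49.

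Usp44 removes ubiquitin from histone H2B and restrains the anaphase-promoting complex at the spindle checkpoint. It read 5.28, 4.38 and 5.25 in Dcr WT and 4.68, 4.42 and 3.93 in Dcr KO, the largest difference below 0 among the tested members, at -0.63 (95% interval -1.27 to 0.02, limma adjusted p = 0.165). Dcr WT replicate 2 lay among the Dcr KO arrays, and without it the difference was -0.92 and passed the test (limma adjusted p = 0.0486).

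Usp6nl is named for its likeness to the amino-terminal part of USP6. It is a GTPase-activating protein for Rab proteins of the endosome and not a deubiquitinase, so the name rule alone placed it here. It read 7.69, 7.97 and 7.55 in Dcr WT and 7.53, 7.34 and 6.89 in Dcr KO, a difference of -0.48 (limma adjusted p = 0.120), the lowest adjusted p among the members that did not pass. Its probe sets differed by -0.71, -0.69 and -0.04, the last for the brightest.

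By role, 3 of the 8 tested members that act in signalling and adhesion rose (Usp25, Usp34 and Usp46), where 6.91% of all genes tested did, and the median difference over the group was 0.33. Role groups are small, were chosen with earlier results of these data known and were not tested against each other. The calls of Usp25 and Usp34 each held in 1 of the 6 fits that leave out an array. Usp2, a protease of cyclin D1, had a difference of -0.23 (limma adjusted p = 0.363), Usp15, which acts on SMAD signalling, of -0.12, and Usp38 of 0.06. None of the 8 tested members of the DNA repair and p53 group changed, where 13.3% of all genes tested did. Their differences ran from -0.14 to 0.27. Usp7, the deubiquitinase of Mdm2 and p53, had a difference of -0.0043 (limma adjusted p = 0.987), and Usp1, which acts on the Fanconi anaemia protein Fancd2 and on PCNA, of 0.08. Usp28, a stabiliser of Myc, had -0.09, Usp10 -0.14, Usp11 0.10, Usp4 0.20, Usp48 0.20 and Usp47, which acts on DNA polymerase beta, 0.27. In its only expressed probe set, Usp4 had 0.31 (limma adjusted p = 0.237 over probe sets).

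None of the 8 tested members that act on histones and chromatin changed, where 13.3% of all genes tested did, and their median difference was 0.0067. Usp22, the H2B deubiquitinase of the SAGA complex, read 0.34 higher on average (limma adjusted p = 0.456), but 0.055 higher without Dcr WT replicate 2. The H2A deubiquitinases Usp16 and Usp21 had differences of -0.07 and 0.10, Usp27x 0.01, the nucleolar Usp36 -0.04 and Usp42, which acts on p53 and histones, 0.14. Among 6 tested members of membrane traffic and organelles Usp33 rose, where 6.91% of all genes tested did. Usp8, which sorts receptors at endosomes, had a difference of 0.05, the endoplasmic reticulum enzyme Usp19 0.04 and the mitochondrial Usp30 -0.17. In its only expressed probe set, Usp8 had 0.28 (limma adjusted p = 0.497 over probe sets). Usp32 read 7.65, 7.67 and 7.59 in Dcr WT and 7.82, 7.83 and 7.77 in Dcr KO, a small difference of 0.17 without overlap that did not pass (limma adjusted p = 0.242). Usp5, which takes apart free ubiquitin chains, had 0.14 and Usp14, which is bound to the proteasome, 0.07.

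For the 33 members that did not pass, the precision of 3 arrays a group limits what can be said. The 95% interval lay within 1.5-fold in either direction for 25 of them. It reached past 1.5-fold for Usp2, Usp6nl, Usp9x, Usp12, Usp22, Usp37, Usp44 and Usp47. For the gene means of these, a change of that size was not excluded in the direction that the interval reached. In the brightest probe set alone, the interval lay within 1.5-fold for Usp6nl, Usp12, Usp22 and Usp47. It reached past 1.5-fold there too for Usp2, Usp9x, Usp37 and Usp44.

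The study's list of candidate miRNA targets, predicted from the mir-295 cluster seed, held 5 of the tested members: Usp9x, Usp25, Usp33, Usp42 and Usp46. Of these 3 rose, where 6.91% of all genes tested did, and the median difference was 0.53, with a range from 0.14 to 0.76. Of the 33 tested members not on it, Usp34 rose and Usp39 fell, with a median of 0.05. The list was chosen partly because its genes were up on these same arrays, so this count is not independent evidence of its direction. Usp42, the lowest of the 5, had a limma adjusted p of 0.422. Its gene mean averaged an expressed probe set with another that was not. The expressed probe set had a difference of 0.25 (limma adjusted p = 0.308 over probe sets).

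Values of close relatives within the family are given side by side from 17 pairs. Usp12 shares its activator Wdr48 and much of its sequence with Usp46. Its gene-mean difference was 0.20 (95% interval -0.40 to 0.81), against 0.76 for Usp46. In its only expressed probe set the difference was -0.20, with every Dcr KO array below every Dcr WT array (limma adjusted p = 0.250 over probe sets). The positive gene mean of Usp12 came from probe sets under the minimum. Usp28 had -0.09, against 0.53 for its relative Usp25. Usp20, the relative of Usp33, was under the minimum. Usp24, a relative of Usp9x, had 0.08. The difference between relatives was not tested. Array probes cannot always tell related transcripts apart, and how far these probe sets do so was not tested.

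Probe sets of the same gene differed for several members. Of 23 USP genes with at least 2 expressed probe sets, 8 (34.8%) had differences over 0.5 apart, against 22.4% of 4220 genes on the array. Such a span can only widen as a gene has more probe sets, and the shares were not matched for their number. These were Usp7, Usp9x, Usp34, Usp53, Usp47, Usp22, Usp6nl and Usp24, with spans from 0.56 to 1.44. Usp7 had the widest span. Its brightest probe set read 12.05, 11.78 and 11.52 in Dcr WT and 12.03, 11.75 and 11.74 in Dcr KO, a difference of 0.06. Another read 8.26, 4.89 and 8.14 against 7.44, 7.97 and 8.58, where Dcr WT replicate 2 alone was low. A dim Usp7 probe set fell, from 5.56, 5.81 and 5.53 to 5.05, 5.10 and 5.12 (difference -0.54, limma adjusted p = 0.0417 over probe sets).

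Usp53, a protein of cell junctions, also had probe sets that went apart. Its brightest rose, from 7.18, 7.22 and 7.20 in Dcr WT to 7.73, 7.68 and 7.64 in Dcr KO (difference 0.48, limma adjusted p = 0.0350 over probe sets). The other probe sets had differences of -0.35 and 0.01, and the gene mean differed by 0.05 (limma adjusted p = 0.791). In total 6 USP probe sets rose, where 4.69% of the 18789 expressed probe sets on the array did, and 2 fell, where 3.07% did. Those that rose belonged to Usp25, Usp33, Usp40, Usp46 (both its expressed probe sets) and Usp53, and those that fell to Usp7 and Usp43, of which the Usp43 probe set passed the filter only through its Dcr WT arrays.

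**Figure D3:**
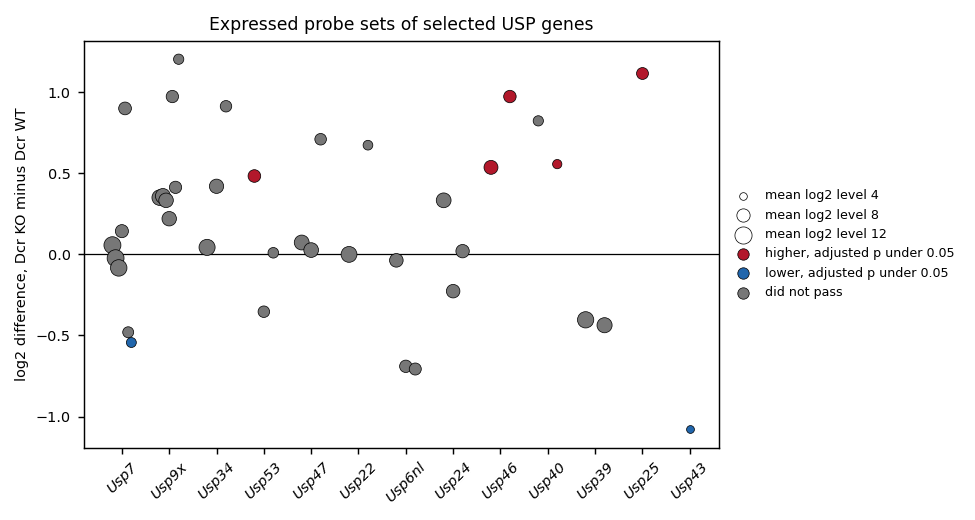
Dcr KO minus Dcr WT log2 difference for each expressed probe set of selected USP genes, plotted against its gene, with point size for the mean log2 level and red (higher) or blue (lower) for probe sets past the test. Usp7 and Usp53 had probe sets on both sides of 0, and all 7 of Usp9x lay above it.

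**Figure D4:**
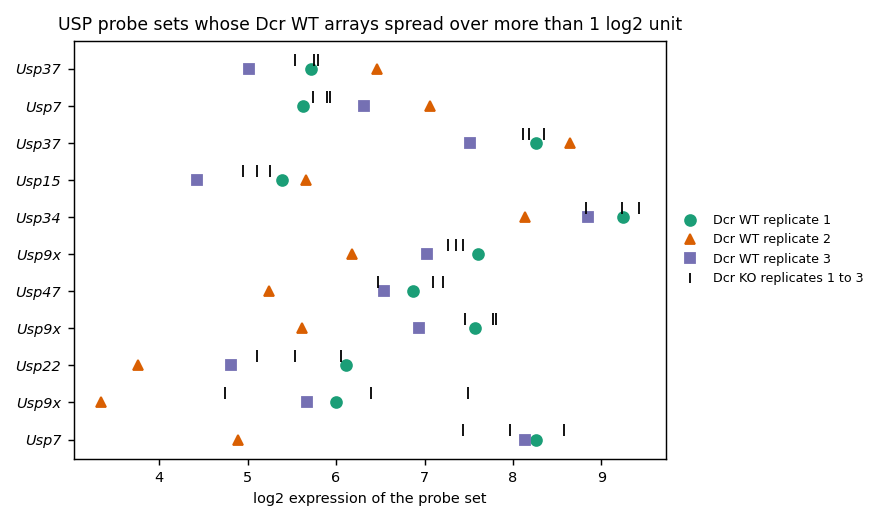
Log2 level on the 3 Dcr WT and 3 Dcr KO arrays for USP probe sets whose Dcr WT arrays spanned over 1 log2 unit, with a symbol for each Dcr WT array and ticks for the Dcr KO arrays. Dcr WT replicate 2 was the lowest Dcr WT array in 7 of these 11 probe sets.

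The remaining 12 members were under the minimum as gene means, which ran from 1.77 to 3.78. They included the germline members Usp9y, Usp26, Usp29 and Usp50, and Usp18, which removes the ubiquitin-like protein Isg15. The others were Usp13, Usp17la, Usp20, Usp31, Usp40, Usp43 and Usp49. An expressed probe set was present in 4 of the 12, namely Usp20, Usp31, Usp40 and Usp43. For Usp40 the expressed probe sets read 4.60, 4.55 and 4.83 in Dcr WT against 5.34, 5.22 and 5.09 in Dcr KO, and 5.30, 5.42 and 4.79 against 5.88, 5.89 and 6.21. The former rose (limma adjusted p = 0.0481 over probe sets) and the latter did not pass (limma adjusted p = 0.0504), and averaged without the dim probe sets they gave a difference of 0.69 (limma adjusted p = 0.00864). For Usp43 the expressed probe set read 4.34, 5.09 and 4.46 in Dcr WT and 3.67, 3.47 and 3.52 in Dcr KO (difference -1.08, limma adjusted p = 0.0310 over probe sets). Its Dcr KO mean was under the minimum, so it passed the filter only through the group where it was high. As a gene, Usp43 was called lower with the brightest probe set (limma adjusted p = 0.0141), with expressed probe sets only (0.0153) and with no filter (0.0379).

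The wider deubiquitinase system was read from 50 further genes on the array, covering USP cofactors, the other protease classes and ubiquitin activation. Of the 43 tested, 3 rose (6.98%, against 6.91% of all genes) and none fell, though Bap1 did after median centring or with an intensity trend. With the filter on the Dcr WT arrays alone, 2 rose, since Stambp was then not tested. At an unadjusted limma p below 0.05, 10 were higher (14.7% of all genes were) and 2, Bap1 and Mpnd, were lower (17.3% of all genes). The median difference was 0.06, the same as among the USPs. None of the 8 tested USP cofactors changed with gene means, where 13.3% of all genes tested did. Of these cofactors 3 (Gmps, Eny2 and Stam2) were higher at an unadjusted limma p below 0.05, where 14.7% of all genes were. Stam2 was called higher with the brightest probe set (difference 0.713, limma adjusted p = 0.0135) and with expressed probe sets only (0.605, limma adjusted p = 0.0363). With gene means, the smallest adjusted p of the cofactors was that of Gmps, a partner of Usp7, with a difference of 0.29 (limma adjusted p = 0.0785). Uchl1, a ubiquitin C-terminal hydrolase abundant in neurons, rose from 9.38, 9.31 and 9.33 to 10.12, 10.30 and 10.46, a difference of 0.95 (limma adjusted p = 0.00398). Its groups were well apart, with the wider spread in Dcr KO.

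Otud1, a protease of the OTU class, rose from 7.27, 7.44 and 7.19 in Dcr WT to 7.96, 7.87 and 8.17 in Dcr KO (difference 0.70, limma adjusted p = 0.0128). It was the only called member of 13 tested in its class, where 13.3% of all genes tested were called. Stambp, a metalloprotease of the JAMM class that trims ubiquitin chains on cargo at endosomes, rose from 3.84, 3.93 and 4.08 to 4.92, 5.32 and 5.63 (difference 1.34, limma adjusted p = 0.00597). Its Dcr WT mean was just under the minimum, so as a gene mean it passed the filter only through the group where it was high. Its expressed probe set, at or above the minimum in both groups, read 4.60, 4.57 and 4.60 against 5.85, 5.81 and 6.25 (difference 1.38, limma adjusted p = 0.00764 over probe sets). The calls of Uchl1, Otud1 and Stambp held without any 1 array. Cyld, a USP-fold regulator of NF-kappaB, had a difference of 0.45 (limma adjusted p = 0.0594), and Bap1, a histone H2A deubiquitinase, of -0.44 (limma adjusted p = 0.0557). The study's list of candidate miRNA targets also held Uchl1 and Stambp, but not Otud1. Wdr48, Cyld, Otub1, Otud4 and Otud6b were on it too and did not pass with gene means. Since the list was chosen partly from rises on these same arrays, these rises are not independent evidence of its direction.

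**Figure D5:**
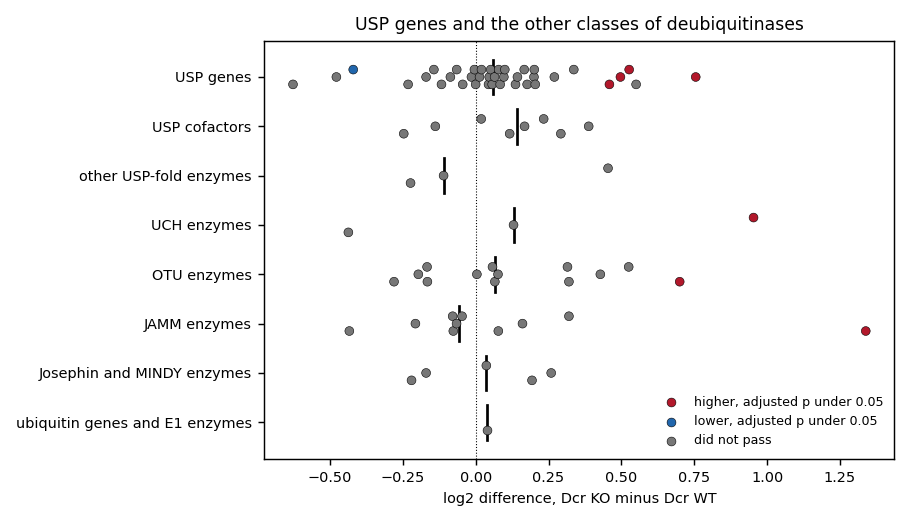
Dcr KO minus Dcr WT log2 difference for each tested gene by class of deubiquitinase or partner, with a point for each gene, red (higher) or blue (lower) for genes past the test and a vertical bar for the median of each class. With gene means, Uchl1, Otud1 and Stambp were called among the other classes, and no cofactor was.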

How the data were processed

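Affymetrix 3' expression arrays of 3 Dcr WT and 3 Dcr KO cultures were used, labelled from 5 ug of total RNA each. The deposited values are log2 signals that the authors obtained with GCRMA 2.20.0 in R 2.11.1, as the submitters' processing notes state. The legend of a supplementary figure of the study, on array correlations, mentions normalization together with arrays not analysed here. Whether the deposited values were made that way is not known, and it could affect them. Array medians ran from 2.96 to 3.01, and no further scaling was applied. Of 45037 probe sets, 34945 name 1 gene, 932 name several and 9160 none. Those that name several were left out, among them 4 that name a USP beside another gene or a second USP. A gene's value is the mean log2 over its probe sets, named from the platform annotation. All 50 USP Entrez identifiers matched RefSeq (GRCm38.p6).

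Genes, and separately single probe sets, were filtered at a 6-array mean of 4 or more and compared with limma 3.58.1 (lmFit and eBayes, R 4.3.3), with Benjamini-Hochberg adjustment over all 8782 genes or 18789 probe sets. The fold of 1.2 and the minimum of 16 follow the study's methods, which apply the minimum to the Dcr WT arrays; that filter was used for the 1.2-fold counts and as an alternative in the tests. With 3 arrays a group, an exact permutation test cannot go below p = 0.1, so none was used for single genes. No depth exists for arrays, and their number limits precision. The fit was tested on simulated data with known changes. Named genes were the called members, the 5 largest differences in each direction, candidate targets, members whose probe sets lay over 0.5 apart, paralog pairs, called partner genes and the smallest adjusted p of a partner list. Members, lists and tests were chosen with earlier results of these data known. Alternatives were another probe set rule, filter, scaling or variance model, a replicate block, and leaving out each array.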

Additional observations from a re-analysis of the deposited data

How the results depend on the processing

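In 14 alternative analyses, no called USP gene changed direction. The number of USP genes that rose was 1 to 3 without any 1 array and 1 with a replicate block, against 4, and 5 with the brightest probe set, with expressed probe sets only and with no filter (Usp40 called in each). With the brightest probe set Usp53 was called higher too and Usp34 was not. The number that fell was 0 to 1 without any 1 array, 0 with the block, and 2 both with expressed probe sets only and with no filter (Usp43 added). Usp25, Usp33, Usp34 and Usp39 were thus near the threshold. The median difference was 0.0744 with no filter, 0.0423 after quantile scaling, 0.0308 after median centring, and 0.0187 to 0.110 without any 1 array. At least 1.2-fold up were 7 members, 9 with the brightest probe set, 10 with expressed probe sets only and 5 to 8 without any 1 array, and 3 to 5 were down without any 1 array. Partner genes that rose numbered 4 with the brightest probe set (Stam2 added) and 5 with expressed probe sets only (Cyld and Stam2 added). With median centring or an intensity trend 1 fell (Bap1). Calls over all genes numbered 357 to 783 without any 1 array, against 1171.

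Over the tested genes, deviations from the group mean correlated at -0.22 to 0.03 between same-numbered Dcr WT and Dcr KO arrays. By these deviations, 0 of 6 arrays correlated best with their own number. With so few arrays a group, this cannot settle whether replicate numbers pair the samples. With the replicate block, limma adjusted p was 0.0541 for Usp25, 0.0540 for Usp33, 0.0716 for Usp34 and 0.0814 for Usp39, and Usp46 stayed called; 597 genes were called in all.

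Differences near 0 changed sign in 16 members that were not called. With the brightest probe set these were Usp7 (0.0567), Usp12 (-0.197), Usp16 (0.0067), Usp27x (-0.10) and Usp36 (0.0133), and with expressed probe sets only Usp12 (-0.197), Usp16 (0.0067) and Usp27x (-0.10). Quantile scaling gave -0.0131 for Usp27x and -0.0139 for Usp37, and median centring -0.0167 and -0.01. Without any 1 array, the differences ran from -0.12 to 0.0888 for Usp7, -0.134 to 0.00722 for Usp36, -0.0528 to 0.159 for Usp1, -0.0658 to 0.25 for Usp8, -0.0711 to 0.386 for Usp12, -0.326 to 0.0167 for Usp30, -0.0192 to 0.126 for Usp19, -0.00667 to 0.218 for Usp21, -0.0471 to 0.175 for Usp24, -0.112 to 0.122 for Usp27x, -0.315 to 0.328 for Usp37, -0.0117 to 0.128 for Usp38, -0.0633 to 0.0633 for Usp45, -0.153 to 0.0117 for Usp16, -0.00611 to 0.106 for Usp53 and -0.183 to 0.0267 for Usp28.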
